A study of Schizosaccharomyces pombe with 8 samples.

Results

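The core histone genes of the fission yeast Schizosaccharomyces pombe were chosen by gene identifier, under a rule that uses no measured value but was written with earlier results of these data known, and are 10 of the 7014 genes in the table of the Lsm8 immunoprecipitation. They are the H3 genes hht1 (SPAC1834.04), hht2 (SPBC8D2.04) and hht3 (SPBC1105.11c), the H4 genes hhf1 (SPAC1834.03c), hhf2 (SPBC8D2.03c) and hhf3 (SPBC1105.12), the H2A genes hta1 (SPCC622.08c) and hta2 (SPAC19G12.06c), the H2B gene htb1 (SPCC622.09), and pht1 (SPBC11B10.10c), which encodes the variant H2A.Z. All 10 were measured in 1 Lsm8 immunoprecipitation (IP) library and 1 control IP library, sequenced as unstranded 40 bp single-end reads. The Lsm8 IP came from strain PP585, in which Lsm8 carries a myc tag (lsm8-myc13, marked with natMX6), and which strain served for the control IP is not given in the sources used here. RNA-Seq was performed on 3 libraries of pof8+ cells (strain PP138) and 3 libraries of pof8Δ cells (strain PP1723). These were stranded libraries of RNA depleted of ribosomal RNA, sequenced as 100 bp single-end reads. All 3 named strains are of mating type h- with the marker alleles his3-D1, ura4-D18, leu1-32 and ade6-M216. The RNA-Seq cultures were grown in rich YES medium, and pof8Δ cells have the complete pof8 reading frame replaced by kanMX6. The RNA-Seq table analysed here lists 44 RNAs and has counts for 40 of them. The authors named it for the Lsm8 IP, and the study reports hht2 among the RNAs enriched there. Shares over these RNAs therefore do not describe all genes. Of the histone genes this table holds only hht2, and it does not hold pof8, so the genotype was not checked on the deleted gene.

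Histones H2A, H2B, H3 and H4 form the protein core of the nucleosome around which DNA is wrapped, and their genes are transcribed mainly in S phase, when new chromatin is assembled. H2A.Z replaces H2A in nucleosomes near the starts of many genes. In fission yeast most core histone genes lie in divergent pairs, an H3 gene beside an H4 gene or an H2A gene beside an H2B gene, that share a promoter with the motif AACCCT, known as the AACCCT box. Teb1 binds this box, the GATA factor Ams2 activates the genes in S phase, and the HIRA complex represses them outside it. Lsm8 is the subunit that distinguishes the nuclear Lsm2-8 ring, best known for binding the 3′ end of U6 snRNA, from the cytoplasmic Lsm1-7 ring, which takes part in mRNA decay.

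The shared promoter is shown first because it ties together genes that are later compared. The promoter, taken as 250 bases before to 50 bases after the annotated start in RefSeq's ASM294v3 annotation, was searched for AACCCT on both strands. Of the 10 genes, 9 held the motif 2 times, in each case as the uninterrupted repeat AACCCTAACCCT. The exception was pht1, with 0 matches. Among the 5106 protein-coding genes of the table, 9.71% of promoters held at least 1 match, 0.705% held at least 2, and 0.392%, or 20 genes, held the repeat. The 11 of these that are not histone genes include the chaperone genes hsp90, ssa1 and ssa2 and the TATA-binding protein gene tbp1, named after the search was made. Each of the 4 divergent spacers held the repeat once, so both genes of a pair were counted through the same copy. The 5 copies are printed below with 14 bases on either side, 5′ to 3′ on the strand that reads AACCCT, with the repeat in capitals.
hhf1-hht1 box, chrI:4699638-4699677, plus strand: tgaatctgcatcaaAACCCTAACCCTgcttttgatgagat
hhf2-hht2 box, chrII:1365046-1365085, minus strand: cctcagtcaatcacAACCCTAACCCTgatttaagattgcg
hht3-hhf3 box, chrII:3529613-3529652, plus strand: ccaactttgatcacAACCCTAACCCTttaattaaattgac
hta1-htb1 box, chrIII:1412286-1412325, minus strand: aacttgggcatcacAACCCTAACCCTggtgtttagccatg
hta2 box, chrI:4053357-4053396, minus strand: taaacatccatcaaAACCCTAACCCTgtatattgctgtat

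The spacers between the annotated starts measured 132 bp for hhf1-hht1, 134 bp for hhf2-hht2, 201 bp for hht3-hhf3 and 177 bp for hta1-htb1. The hht3-hhf3 spacer ends at the start codon of hhf3, since no leader is annotated for that gene. The spacer of hhf2 and hht2 (chrII:1364985-1365118, plus strand, ASM294v3) is given in full because it lies before the histone gene with the highest Lsm8 ratio. The repeat, read here from the other strand, is in capitals.
hhf2-hht2: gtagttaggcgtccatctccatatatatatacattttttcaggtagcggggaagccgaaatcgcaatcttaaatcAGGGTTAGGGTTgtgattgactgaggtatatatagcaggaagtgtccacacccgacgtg
Within this spacer, 75 bases lie between the annotated start of hhf2 and the repeat, and 47 bases between the repeat and that of hht2. All 10 genes are annotated as a single exon. Coding regions span 312 to 420 bases, and annotated transcripts span 622 bases for hhf3 to 1319 bases for htb1.

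The H3 copies are 88.3% to 92.7% identical in their coding regions, which matters for whether a 40 bp read can be placed. Their coding regions of 411 bases differ at 46 positions between hht1 and hht2, at 48 between hht2 and hht3 and at 30 between hht1 and hht3, and all 3 translate to the same protein. The first 120 coding bases are given, with capitals at the 17 positions where the copies are not all the same.
hht1, chrI:4699829-4699948, plus strand: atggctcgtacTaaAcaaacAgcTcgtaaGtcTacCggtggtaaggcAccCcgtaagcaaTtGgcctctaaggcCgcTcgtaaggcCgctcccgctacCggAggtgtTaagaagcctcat
hht2, chrII:1365158-1365277, plus strand: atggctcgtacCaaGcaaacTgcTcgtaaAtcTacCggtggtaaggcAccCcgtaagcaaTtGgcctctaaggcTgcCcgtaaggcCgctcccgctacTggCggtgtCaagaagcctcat
hht3, chrII:3529410-3529529, minus strand: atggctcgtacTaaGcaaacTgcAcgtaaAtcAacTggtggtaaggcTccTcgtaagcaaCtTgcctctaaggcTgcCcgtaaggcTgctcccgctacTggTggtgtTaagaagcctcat
The H4 copies differ at 27 of 312 coding bases between hhf2 and either other copy and at 21 between hhf1 and hhf3, and encode the same protein. The H2A copies hta1 and hta2 do not encode the same protein. Between 95.9% and 100% of the 40-base stretches of each histone gene occurred once in the genome. Reads from the remaining stretches could not be assigned to a copy and were left out of the authors' counts.

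Reads were counted per gene without regard to strand, and the ratio of a gene is its reads in the Lsm8 IP over those in the control IP after each library was divided by its median count, 108 and 43 reads. The Lsm8 IP held 6604836 reads in genes and the control IP 942080. The U4 snRNA snu4 and U6 snRNA snu6 took 70.0% of the Lsm8 IP reads and 1.83% of the control IP reads. There was 1 library of each kind, so no difference between them has a replicate check. The 95% intervals of IP ratios and read shares below are exact Clopper-Pearson intervals. Those of a ratio between 2 genes are exact conditional intervals of the odds ratio. Both kinds cover counting error only.

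Histone RNAs had a median ratio of 1.19, beside 0.872 for the 4625 protein-coding genes with at least 10 control IP reads. The ratio was above 1 for 6 of the 10 histone genes and for 40.3% of those coding genes. This count follows the scaling, with 0 of 10 above 1 for total library counts and 7 of 10 for total counts without snRNAs. It was above 2 for 1 histone gene and for 10.3% of coding genes. By the study's thresholds, a difference of at least 10 normalized counts and a ratio above 2, only hht2 of the 10 was enriched in the Lsm8 IP. The same call was made for 0.313% of the 5106 protein-coding genes and 0.485% of all 7014 genes. It used the medians given above, with control IP reads below 3 set to 3 in the ratio. With the authors' medians of 96 and 37 reads the ratio of hht2 was 2.25, and the study lists it as enriched. With total library counts as the scaling the median ratio of the histone genes was 0.425 and 0 were enriched. Together the 10 genes took 13007 reads, or 0.197%, of the Lsm8 IP and 4851 reads, or 0.515%, of the control IP. With the snRNAs left out of both totals, these shares were 0.669% and 0.529%.

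The H3 genes had the widest range. For hht2, the Lsm8 IP held 2012 reads and the control IP 344, which gave a ratio of 2.33 (95% interval 2.08 to 2.62). Its difference of 10.6 normalized counts lay just above the threshold of 10. For hht3 the ratio was 1.30 (1.17 to 1.45), from 1466 and 448 reads. For hht1 it was 0.308 (0.268 to 0.353), from 367 and 475 reads, the lowest of the 10 genes. The copy with the fewest control IP reads of the 3 thus had the most Lsm8 IP reads.

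The H4 genes were divided as well. The ratio of hhf1 was 1.54 (1.39 to 1.72), from 1752 and 452 reads. That of hhf2 was 1.35 (1.15 to 1.61), from 619 and 182 reads. The ratio of hhf3 was below 1, at 0.710 (0.636 to 0.793), from 902 and 506 reads. The intervals of hhf1 and hhf2 overlapped, and that of hhf3 lay below both.

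Of the 10 genes, hta1 and htb1, the divergent H2A and H2B pair, held the most reads in both IPs. The ratio of hta1 was 1.07 (0.990 to 1.15), from 2468 and 920 reads, and that of htb1 was 0.968 (0.900 to 1.04), from 2571 and 1058 reads. Both intervals include 1. The second H2A gene, hta2, had a ratio of 0.615 (0.542 to 0.698), from 630 and 408 reads. The H2A.Z gene pht1 had the fewest reads, 220 and 58, and a ratio of 1.51 (1.13 to 2.05).

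Per kilobase of annotated transcript, control IP reads ran from 46.7 for pht1 and 229 for hhf2 to 886 for hta1, the highest. The other 7 genes lay between 467 and 814. In the Lsm8 IP, pht1 was again lowest at 177 reads per kilobase, followed by hht1 at 443, and hht2 was highest at 2874. The length behind the authors' RPKM of hht2 was 778 bp, against 700 bp in the annotation used here. The level of hht2 per kilobase was below that of hht1 in the control IP, at 491 against 573, and above it in the Lsm8 IP. By control IP reads, 9 of the histone genes lay between the 86.3 and 96.8 percentiles of protein-coding genes, and pht1 at 56.1.

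**Figure D1:**
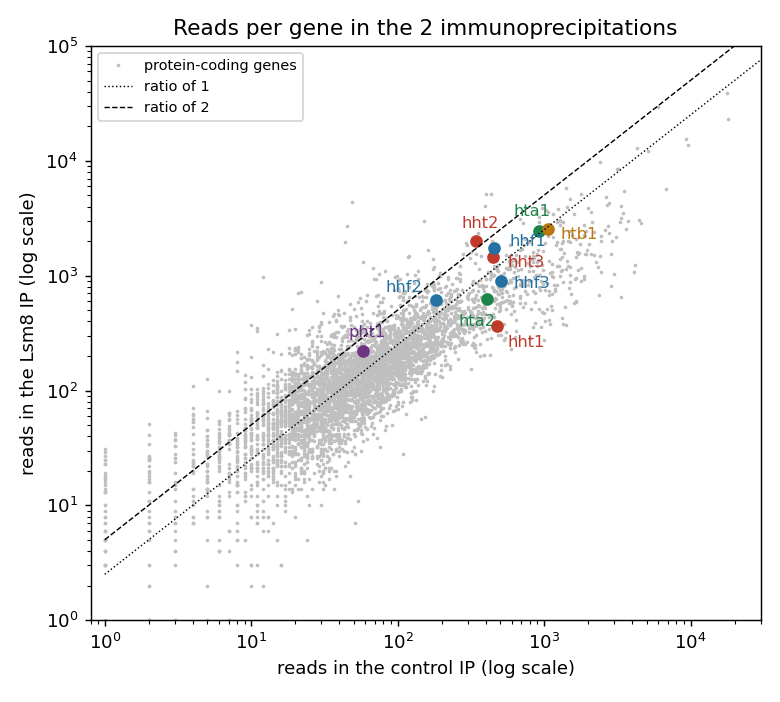
Reads per gene in the control IP (x axis) and the Lsm8 IP (y axis), both on log scales, for protein-coding genes with reads in both (grey) and the 10 histone genes (coloured by histone). The dotted and dashed lines are ratios of 1 and 2 after scaling to the median. hht2 lies just above the dashed line with a ratio of 2.33, and hht1 lies lowest of the histone genes at 0.308.

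Coding genes with many control IP reads had lower ratios, with a median of 0.882 around the level of pht1 and of 0.441 around that of htb1, so each histone gene was set beside the protein-coding genes whose control IP reads were within 1.5-fold of its own. A comparison of this kind does not depend on how the libraries were scaled. The ratio was above the median of the comparison genes for 9 of the 10 histone genes, where by construction a median leaves 50% of genes above it. It was 3.84 times the median for hht2 (274 comparison genes, of which 2.55% had a ratio at least as high), 2.68 times for hhf1 (4.41% of 227 genes), 2.26 times for hht3 (4.82% of 228) and 2.32 times for hta1 (8.70% of 138). For htb1 the value was 2.19, for hhf2 1.85, for pht1 1.71 and for hhf3 1.28. The ratio of hta2, at 1.08 times the median, was at or near that of its comparison genes, since 42.4% of them had a ratio at least as high. Only hht1 lay below the median, at 0.545 times it, and 11.4% of its 219 comparison genes had a ratio as low or lower.

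Annotated length moved some of these values. With comparison genes also required to be within 1.5-fold in length, an alternative chosen after seeing the data, hht2 was 5.12 times the median of 25 genes and hht1 0.676 times the median of 35 genes, and 9 of 10 histone genes were again above the median. With control IP reads within 2-fold, hta2 moved to 0.991 times the median, which left 8 of 10 above it.

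**Figure D2:**
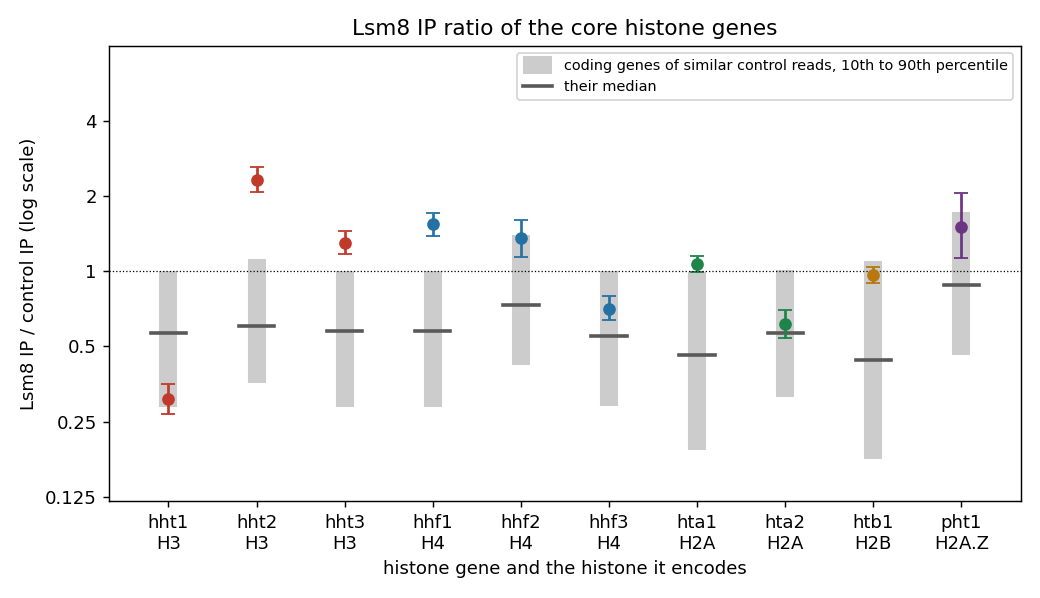
Ratio of the Lsm8 IP to the control IP (log scale) for each histone gene, with 95% counting intervals, beside the 10th to 90th percentile (grey bars) and median (dark lines) of protein-coding genes with similar control IP reads. hht2, hht3, hhf1 and hta1 lie above the grey bars, and hht1, at 0.308, lies below the median of its comparison genes, 0.564.

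Copies of a gene that encode the same histone were compared directly, because a ratio between 2 genes is free of library scaling. The ratio of hht2 was 7.57 times that of hht1 (95% interval 6.31 to 9.08) and 1.79 times that of hht3 (1.52 to 2.10). Among H4 copies, hhf2 was 1.91 times hhf3 (1.56 to 2.34), whereas hhf1 was 1.14 times hhf2, with an interval of 0.932 to 1.39 that includes 1. For H2A, hta1 was 1.74 times hta2 (1.497 to 2.01). These intervals have no replicate behind them, so how much copies vary between IPs of the same kind is not known from these data.

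The shares of reads within a histone show the same measurements from another side. Of all H3 reads, hht1 made up 37.5% in the control IP (34.8% to 40.2%) and 9.54% in the Lsm8 IP (8.63% to 10.5%), and hht2 made up 27.2% (24.7% to 29.7%) and 52.3% (50.7% to 53.9%). The share of hht3 was 35.4% in the control IP and 38.1% in the Lsm8 IP, with overlapping intervals. Of H4 reads, hhf1 held 39.6% and 53.5%, hhf2 16.0% and 18.9%, and hhf3 44.4% and 27.6%, each in the control IP and then the Lsm8 IP. Of H2A reads, hta1 held 69.3% and 79.7%.

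Summed over copies, H3, H4, H2A and H2B were closer together than the copies of H3, H4 or H2A were. A summed ratio lies between those of its copies, so a narrower range follows in part from the summing. The ratio of all reads was 1.21 for H3 (1.13 to 1.29), 1.14 for H4 (1.07 to 1.22), 0.929 for H2A (0.871 to 0.991) and 0.968 for H2B. H2A.Z, encoded by pht1 alone, was higher at 1.51 (1.13 to 2.05). Within H3 the highest copy was 7.57-fold above the lowest, within H4 2.17-fold and within H2A 1.74-fold.

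**Figure D3:**
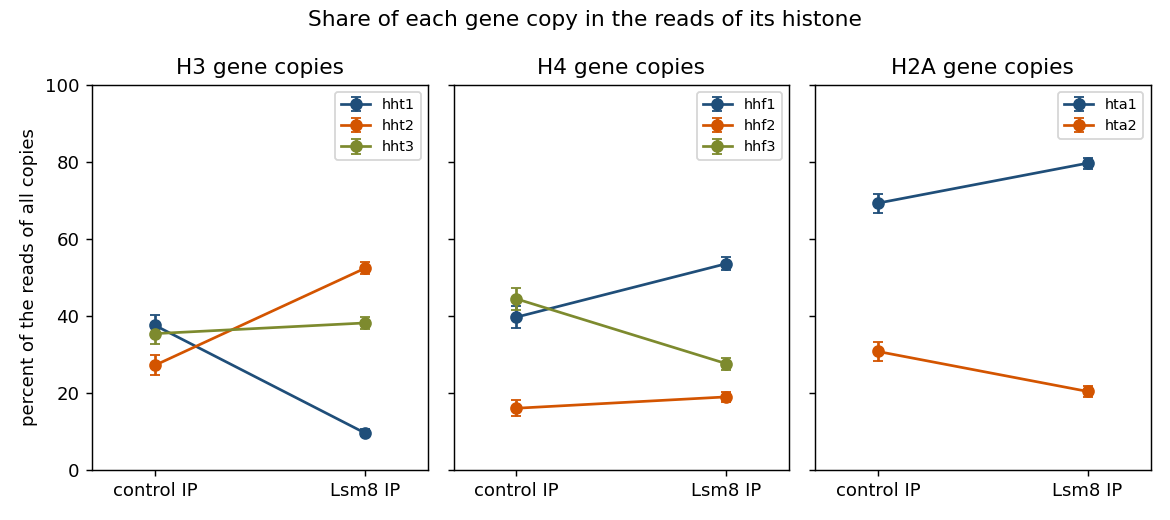
Share of each gene copy in the summed reads of all copies encoding H3, H4 or H2A (percent, y axis) in the control IP and the Lsm8 IP, with exact 95% counting intervals. The lines of hht1 and hht2 cross, with hht1 going from 37.5% to 9.54% and hht2 from 27.2% to 52.3%.

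The 2 genes of a divergent pair share the spacer and its AACCCT repeat, and their ratios were compared in the same way. The ratio of hhf1 was 5.02 times that of its neighbour hht1 (4.21 to 5.97). The ratio of hht3 was 1.84 times that of hhf3 (1.57 to 2.14), and that of hht2 1.72 times that of hhf2 (1.40 to 2.11). The ratios of hta1 and htb1 differed 1.10-fold, with an interval of 0.993 to 1.23 that includes 1. Over both kinds of pair, 7 of 9 intervals excluded 1. Several genes recur among the 9 pairs, and such intervals were not computed for other pairs, so the count has no background share.

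Differences of this size also occurred between other neighbours. The table holds 32 other divergent pairs of protein-coding genes with starts at most 300 bp apart and at least 100 control IP reads in each gene, and their ratios differed by a median of 1.45-fold, with a 90th percentile of 4.16-fold. A difference as large as that of hhf1 and hht1 was found in 3.13% of these pairs, or 1 pair, and one as large as those of the other H3 and H4 pairs in 43.8%. The H2A and H2B pair was among the more alike, since 81.3% of the other pairs differed at least as much.

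Some histone genes overlap other genes in the ASM294v3 annotation, and with unstranded counting their reads cannot be told from those of the overlapping gene. The hhf3 gene lies wholly inside the non-coding SPNCRNA.1611, which was listed with 905 and 506 reads, close to the 902 and 506 of hhf3 itself. The hta1 gene lies inside SPNCRNA.1194, listed with 2469 and 923 reads, close to the 2468 and 920 of hta1. The overlaps of hht3 with rav1 (46 bp), of htb1 with sec5 (258 bp) and of hhf2 with SPNCRNA.1432 (79 bp) cover only part of each gene. The ratio was 3.67 for rav1 and 1.19 for sec5, and SPNCRNA.1432 was listed with only 2 and 3 reads. The part of these overlaps in the ratios was not tested. The genes hht1, hht2, hhf1, hta2 and pht1 overlap no other gene of the table, and the median ratio of these 5 was 1.51. The contrasts between hht1 and hht2 and between hht1 and hhf1 are between genes with no overlap in ASM294v3. Reads were counted on ASM294v2, whose overlaps were not checked.

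The longest run of T in the annotated transcript was 10 bases for hht2 and hta1, 8 for htb1, 7 for hht1, hhf1, hhf2, hta2 and pht1, and 6 for hht3 and hhf3. The ratios of hht2 and hta1 were 2.33 and 1.07, or 3.84 and 2.32 times the medians of their comparison genes. With shorter runs, hhf1 and hht3 were at 2.68 and 2.26 times those medians. Runs were taken anywhere in the transcript, and their part in the ratios was not tested. The GC content of the transcripts ran from 34.6% in hhf1 to 41.5% in hht3, with hht1 at 39.9% and hht2 at 38.9%.

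Genes that act on histones or are transcribed in the same phase were taken from lists chosen with earlier results of these data known. Of these genes 0 were enriched in the Lsm8 IP, which at a share of 0.313% over coding genes says nothing particular about them. Counts above 1 are to be read beside the 40.3% of coding genes. The centromeric H3 variant gene cnp1 had a ratio of 0.780 (94 and 48 reads). Regulators of histone gene transcription, 6 genes including ams2, teb1 and the HIRA subunits, had a median of 0.854, from 0.340 for the HIRA gene slm9 to 2.13 for hip4, with 14 control IP reads, and 2 of 6 lay above 1. Of 14 histone chaperone genes 13 were matched by name and 11 had at least 10 control IP reads. Their median was 0.546, from 0.386 for nap2 to 1.93 for pcf2, a subunit of the chromatin assembly factor CAF-1, and 1 of 11 lay above 1. S phase genes controlled by the MBF transcription factor had a median of 0.692 over 9 genes, from 0.275 for ssb1, a subunit of replication protein A, to 2.03 for the cohesin gene rad21, and 2 of 9 lay above 1. Of the chaperone genes with fewer control IP reads, mis18 had 118 and 9 reads and a ratio of 5.22 (2.66 to 11.7), and scm3 had 22 and 6 reads and a ratio of 1.46 (0.574 to 4.40). The medians of the 3 lists lay below the 0.872 of all coding genes, that of the regulators only slightly, and that of the histone genes lay above it. The 0.872 is not matched for control IP reads, with which ratios fell, and no list was tested.

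In the RNA-Seq, hht2 could be compared between genotypes. Counts were divided by effective library sizes worked back from the deposited average log2 CPM, and calls required both an adjusted p below 0.05 and a log2 fold change beyond 1 in either direction. The labels do not say whether libraries came from separate cultures, so p-values measure the spread between these libraries, which may be technical. In pof8+ libraries 1 to 3, hht2 was present at 385, 446 and 364 CPM, reads scaled by effective library size (18353, 24892 and 19755 reads). In pof8Δ libraries 1 to 3 it was present at 440, 356 and 338 CPM (26401, 23307 and 25817 reads). The groups overlapped, with pof8Δ library 1 above 2 of the pof8+ libraries.

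The mean was 398 ± 42.6 CPM in pof8+ and 378 ± 54.2 CPM in pof8Δ cells (SD, n = 3 each). On the log2 scale pof8Δ differed from pof8+ by -0.08, with a standard error of 0.13 and a 95% interval of -0.39 to 0.24, or 0.765-fold to 1.18-fold. The quasi-likelihood test of edgeR gave an adjusted p = 0.757 (Benjamini-Hochberg over the 40 RNAs). This was less than the SD within either group, and the interval bounds any change without showing that the levels are equal. Among the 40 RNAs, 1 other RNA, or 2.5%, was called lower (2 with a lower fold threshold, or without pof8+ replicate 3, pof8Δ replicate 1 or pof8Δ replicate 3), the median log2 fold change was -0.10, and the groups did not overlap for 27.5%.

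**Figure D4:**
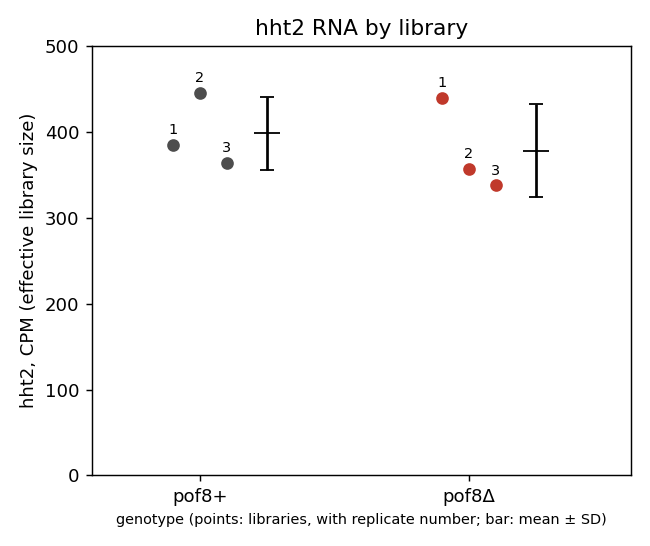
CPM of hht2 in each RNA-Seq library of pof8+ and pof8Δ cells (points, with replicate number) and the mean with SD (n = 3). The pof8+ libraries lie between 364 and 446 CPM and the pof8Δ libraries between 338 and 440 CPM, so the groups overlap.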

How the data were processed

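Per the study's methods and the labels, the authors aligned reads with STAR 2.5.2b to ASM294v2 and counted unambiguous, uniquely mapped reads per gene. For the IPs the authors deposited a signal, the count over the library's median, and the ratio of both IPs. Multiplied by 96 reads, all 7014 Lsm8 signals were whole (tolerance 1e-06 reads). Control reads were worked back from the ratio with 37 reads, and those of 98 genes without Lsm8 reads were not assigned. For the RNA-Seq the authors deposited counts of 40 RNAs, with their average log2 CPM and average RPKM, used here only to recover library sizes (49448968 to 72951191 reads in total). The deposited fold changes, likelihood ratios, p-values and enrichment mark were not used. Main scaling used medians over genes with at least 1 read.

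The test was edgeR 4.0.16 (quasi-likelihood) in R 4.3.3, with DESeq2 1.42.0 as an alternative. The edgeR test, the recovery of library sizes and the counting intervals were tested on simulated data. Other steps used Python 3.11.15 and SciPy 1.17.1. Of 7014 genes, 6846 were matched to RefSeq ASM294v3, which gave sequences, lengths, classes and overlaps. The files hold no coordinates. Named genes were the members, the extremes of each list, cnp1, snu4, snu6 and overlapping genes. The members and lists were chosen with earlier results of these data known. Alternatives covered scaling, thresholds, comparison genes, overlaps, pseudocounts, the tool, a block on replicate number and leaving out single libraries.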

Additional observations from a re-analysis of the deposited data

How the results depend on the processing

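Scaling sets the level of every ratio. The number of enriched histone genes was 0 with total counts, with the median of protein-coding genes or with a ratio above 3, and 1 under the other scalings and thresholds tried. The median histone ratio was 0.425 with total counts, 1.41 with total counts without snRNAs, and 1.51 with overlapping genes left out. With total counts the ratio of hht2 was 0.834, below 1. Ratios between histone genes do not depend on scaling. With 1 read added to every count, an alternative chosen after seeing the data, 7 of 9 intervals again excluded 1. The lowest count in these pairs was 182 reads (hhf2, control IP), so 1 added read could hardly change them. The log2 fold change of hht2 in pof8Δ was 0.048 with TMM factors and 0.039 with DESeq2 size factors over the listed RNAs, which moved the median of the 40 RNAs from -0.10 to 0.03 and 0.02. With 1 library left out it ranged from -0.20 to 0.014, the highest without pof8+ replicate 2. The fit with the replicate number as a block gave -0.08 (adjusted p = 0.781, edgeR), and same-numbered libraries did not deviate together (correlations across RNAs 0.28, -0.68 and 0.14). Over the 14 fits, adjusted p ranged from 0.299 to 0.998 and 0 were below 0.05. With 1 library per IP, the variation between IPs is not known, and counting error is only a lower limit on the uncertainty.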
